A study of Mus musculus with 8 samples.

Results

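The immunoglobulin heavy chain segments were taken as every array feature (a probe sequence, printed as 1 spot or more) annotated to an Ensembl mouse transcript from ENSMUST00000103416 to ENSMUST00000103567. This gave 98 features for 93 transcripts, of 55681 features in all. All were kept, whatever their signal. The block was chosen with the ATF3 KO minus WT differences of these same 8 arrays in view, so those differences are given as a description, with no test of the members. The files pair none of the 98 features with a gene symbol. Their identity as heavy chain segments therefore rests on the accession range and could not be checked against gene names. Members are called here by accession number with the leading letters and zeros dropped, so that 103444 is ENSMUST00000103444.

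RNA came from Ly6G+ cells, the neutrophil fraction, pulled with magnetic beads from bone marrow of tibias and femurs. There were 4 WT samples and 4 ATF3 KO samples, all on the C57BL/6 background, each on 1 single-colour Agilent array, named below by group and the number in its title. The study asked how ATF3, a stress-induced transcription factor, acts on mouse neutrophils. How the Atf3 allele was made, the age of the mice, the purity of the fraction and whether each sample was a separate mouse are not given in the sources used here, so the spread between samples may be partly technical. The sample descriptions of 7 samples speak of culture with 4-OHT in methylcellulose, whereas the design text says that RNA was taken straight after sorting, and the sources do not settle this. All 8 arrays were on 1 slide, and each group filled a row of it, so an effect of the row and an effect of genotype cannot be told apart.

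Values are log2 of the processed signal minus the array's 75th percentile of it, so 0 is that percentile and 1 unit is 2-fold. Differences are ATF3 KO mean minus WT mean, with n = 4 in each group throughout. The 75th percentile of the signal was 112.5 to 215.7, and 46.0% to 55.3% of all features were well above background on an array. WT 2 had the highest percentile and ATF3 KO 4 the lowest. The part of array brightness in the differences was not tested. The probe for Atf3 itself read 0.73 ± 0.07 (SD, n = 4) in WT and 1.24 ± 0.27 (SD, n = 4) in ATF3 KO, a difference of 0.51 (SE 0.14, limma adjusted p = 0.13). It was higher on every ATF3 KO array, and where it lies relative to the altered part of the gene is not known, so it does not verify the labels. Every direction below rests on the labels. Neutrophil genes were plainly present: 17 of 17 measured neutrophil markers were above background on all 8 arrays.

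An antibody heavy chain is encoded by a gene assembled in developing B cells, when a variable, a diversity and a joining segment are cut and joined. The joined segment is read through into a constant segment that sets the antibody class. Each B cell, with the cells descended from it, normally makes a single productive heavy chain, and plasma cells carry very large amounts of that RNA. Neutrophils are not known as antibody-making cells.

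Heavy chain signal was higher in the ATF3 KO samples for most members. The mean difference was above 0 for 83 of the 98 and below 0 for 15. The median was 0.46, a 1.38-fold ratio, against 0.02 over all 55681 features and 0.10 over the 3120 features for other Ensembl transcripts. The quartiles were 0.17 and 1.02 and the range ran from -0.90 to 3.02. At least 1 log2 unit higher were 26 members, against 1.67% of all features, and at least 2 units higher were 12, against 0.119%. No member was at least 1 unit lower, against 0.485% of all features. In bulk RNA, more cells that carry a transcript and more of it per cell cannot be told apart.

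These sizes depended on how dim spots were treated. With normexp background correction, which compresses dim signals, 10 members were at least 1 unit higher, against 0.108% of all features. In the authors' deposited log2 table there were 11, against 0.119%. The members' median was then 0.30 with normexp and 0.27 in the deposited table. Normexp also moved the median of all features to 0.15, so that the members' median lay 0.15 above it, against 0.45 in the main scaling and 0.28 in the deposited table. The number of members with a difference above the median of all features was 81 in the main scaling, 82 with normexp, 80 with quantile normalization and 83 in the deposited table.

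**Figure D1:**
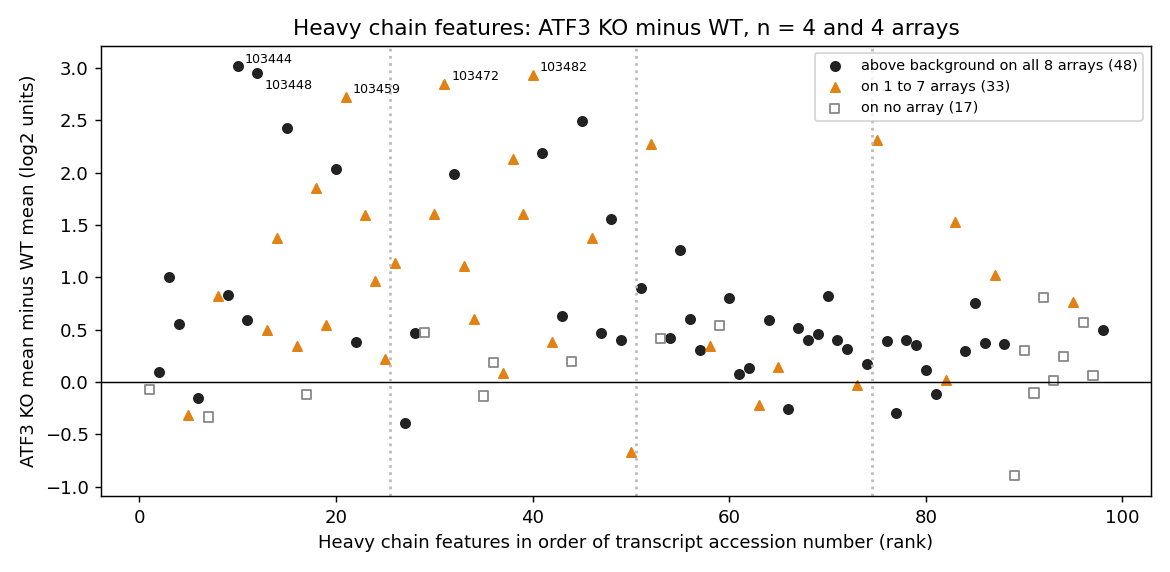
ATF3 KO mean minus WT mean (y axis, log2 units) for the 98 heavy chain features in order of accession number (x axis, rank), with dotted lines between 4 equal stretches of the order. Filled circles were above background on all 8 arrays (48), triangles on 1 to 7 (33) and open squares on none (17, whose values are floor values); the differences of 1 or more lie mostly in the first 2 stretches.

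Detection followed the same direction. Above background on all 8 arrays were 48 members, 49.0% of them against 42.1% of all features. On no array were 17, 17.3% against 39.5%. The other 33 were above background on some arrays. Of the members, 21 were above background on more ATF3 KO arrays than WT arrays and 7 on more WT arrays. The share of all features with such counts is not given here. By array, the number above background was 67, 67, 57 and 58 in WT and 72, 74, 72 and 60 in ATF3 KO, so ATF3 KO 4 lay within the WT range. Over all features the share above background was 55.3%, 51.8%, 50.5% and 46.4% in WT and 50.2%, 53.2%, 46.9% and 46.0% in ATF3 KO. The 17 members never above background had differences with a median of 0.19, which are differences between floor values and measure no RNA. Over the 72 members that stood above background somewhere in WT and somewhere in ATF3 KO, the median difference was 0.51, with 65 higher and 7 lower. The same median over all 29458 such features was -0.10.

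For 20 members every ATF3 KO array lay above every WT array, and for 1 member, 103553, every one lay below. The same held for 2.64% and 5.81% of all features. Of the 20, 17 were above background in both groups. The 1 lower member was above background on no array. Fitted with limma over the 27948 features above background on at least 4 arrays, 44 features were higher at an adjusted p under 0.05 (0.157%) and 58 in either direction (0.208%). The split of 44 higher and 14 lower was 163 and 91 with normexp and 27 and 15 with quantile normalization. The fit tested 67 members. It called 3 higher, 1 feature each of 103459, 103473 and 103492, and none lower. Since the members were chosen on this contrast, nothing is read from these counts. Outside the block, 18 of 1386 tested Ensembl features were called higher and 0 lower. These counts rest on single arrays. The number of called members was 1 without WT 1, WT 3, WT 4 or ATF3 KO 2. Over all features the 58 calls became 8 to 156 when 1 array was left out, the fewest without WT 3 and the most without ATF3 KO 3. The 20 members without overlap became 31 without WT 2 and 39 without ATF3 KO 4, while the number of all features went from 1470 to 1672 and 1755.

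Among members above background on at least 1 array per group, the largest difference belonged to 103444. It read -1.25, -1.95, -2.68 and -1.99 on the WT arrays and 1.74, 2.13, 0.63 and -0.31 on the ATF3 KO arrays, a difference of 3.02 or 8.09-fold. The groups did not overlap, and ATF3 KO 4 was the lowest of its group. The member 103448 read -1.23, -1.24, -1.96 and -1.94 in WT and 2.06, 2.50, 0.98 and -0.10 in ATF3 KO, a difference of 2.95. The order of the ATF3 KO arrays was the same as for 103444. Between them in accession number, 103445 had a smaller difference of 0.59, overlapping groups and another order, with -1.66, -1.74, -0.96 and -0.91 in ATF3 KO.

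The same order returned in 103452. Its values were -1.14, -1.16, -2.78 and -1.70 in WT and 1.03, 1.85, 0.44 and -0.40 in ATF3 KO, a difference of 2.43. Both features of 103459 were also highest on ATF3 KO 2. The feature measured on all 8 arrays read 0.33, 0.71, -0.06 and 0.39 in WT and 2.80, 3.11, 1.94 and 1.67 in ATF3 KO, a difference of 2.04. The other feature, above background on 2 WT arrays, gave a difference of 2.72. The probe sequences are not given in the files used here, so how far these probes can share targets among similar variable segments is unknown.

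A second set was highest on ATF3 KO 1. For 103472 the values were -1.96, -3.00, -1.57 and -3.20 in WT and 1.44, -0.01, 0.69 and -0.45 in ATF3 KO, a difference of 2.85. For 103473 they were -1.54, -1.85, -1.43 and -2.15 in WT and 1.16, -0.29, 0.25 and -0.15 in ATF3 KO, a difference of 1.98. In both, WT 1 and WT 3 were the higher WT arrays, and no ATF3 KO array fell to the WT level. For 103492 the ATF3 KO arrays were closer together, at 0.97, 0.72, 0.10 and 0.00, against -2.20, -1.73, -2.12 and -2.12 in WT, a difference of 2.49. The SD was 0.47 in ATF3 KO and 0.21 in WT for this member.

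Another order appeared in 103483, which read -1.40, -2.26, -2.18 and -2.72 in WT and -0.64, -1.01, 1.34 and 0.49 in ATF3 KO, a difference of 2.18. Here ATF3 KO 3 and ATF3 KO 4 were the high ones. For 103500 the difference was 2.28, with -3.54, -4.75, -4.96 and -3.02 in WT, where only 1 array was above background, and -0.86, -2.52, -2.36 and -1.43 in ATF3 KO. With normexp the differences of the 8 leading features, counting the second feature of 103459, ran from 0.76 for 103500 to 2.13 for 103448, and all 8 were above 0.

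**Figure D2:**
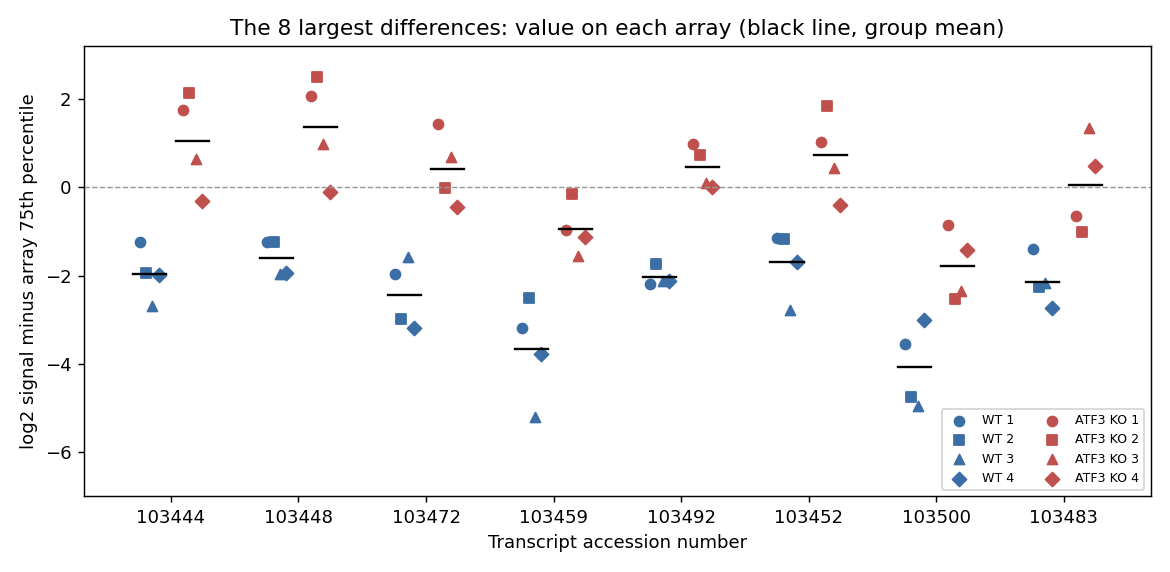
log2 signal minus the array's 75th percentile (y axis) for the 8 features with the largest differences among members above background on at least 1 array per group (x axis, accession number), 1 symbol per array, WT in blue and ATF3 KO in red, with a black line at each group mean. The groups do not overlap in any of these 8 (they do in 103482, which no WT array measured), while which ATF3 KO array is highest changes from member to member.

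Some members were measured in ATF3 KO alone. In 7 no WT array was above background while 1 or more ATF3 KO arrays were, and the reverse held for 2. The share of all features with either pattern is not given here. Each WT value was raised to at least the dimmest signal called above background on its array. The ratio of ATF3 KO to the resulting WT mean was 2.08-fold for 103482, 2.04-fold for 103529, 1.55-fold for 103461 and 1.49-fold for 103451. The ATF3 KO mean includes arrays not above background, so these ratios are no strict lower bounds. Above background were 3 of the 4 ATF3 KO arrays for 103529 and 2 of the 4 for 103461 and 103451. The groups overlapped for 103461. The ratio was under 1 for the other 3, which get no fold. For 103482 the ATF3 KO arrays themselves differed widely, at 0.15, -2.16, -2.42 and -4.76, with 3 of the 4 above background. Its lowest ATF3 KO array lay below WT 4, at -4.08, and neither was above background.

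Not every member was higher in ATF3 KO. Among members above background on all 8 arrays the lowest differences were -0.39 for 103468, -0.30 for 103534, -0.26 for 103520 and -0.15 for 103426. The first 3 were below 0 under each scaling run, while 103426 lay at 0.004 in the deposited table. For 103426, which has 10 spots on each array, the values were 4.57, 4.30, 4.07 and 4.11 in WT and 4.46, 4.08, 4.08 and 3.82 in ATF3 KO, and the groups overlapped. The SD between its 10 spots on 1 array was 0.04 to 0.07, below the SD between arrays of 0.23 in WT and 0.26 in ATF3 KO. For 103534 the WT arrays lay at -0.52, -0.48, -0.50 and -0.47 and the ATF3 KO arrays at -0.64, -0.92, -0.44 and -1.18, so 3 of the 4 were below all of WT. The other member with 10 spots, 103467, had a difference of 1.14 with spot SDs of 0.11 to 0.40 and SDs between arrays of 0.51 in WT and 0.61 in ATF3 KO.

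Of the 5 transcripts with 2 features, 103443 gave 0.83 and 0.82, 103420 gave 1.01 and 0.55, and 103459 gave 2.04 and 2.72. For 103528 the features gave -0.03 and 0.17, and neither feature of 103558 was above background on any array. The lowest-numbered member, 103416, was above background on no array, and the highest-numbered, 103567, had a difference of 0.50. Just outside the range, 103414 was above background on 1 WT array and no ATF3 KO array, and 103568 had a difference of 0.11.

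The size of the differences varied along the accession order. In 4 equal stretches of that order the median difference was 0.59, 0.63, 0.41 and 0.35. The number of members at least 1 unit higher was 9, 12, 2 and 3 in the same stretches. The median SD between ATF3 KO arrays was 0.59 and 0.61 in the first 2 stretches and 0.39 and 0.41 in the last 2. Accession order is no position on a chromosome, and the files used here do not say which segments fall in which stretch.

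**Figure D3:**
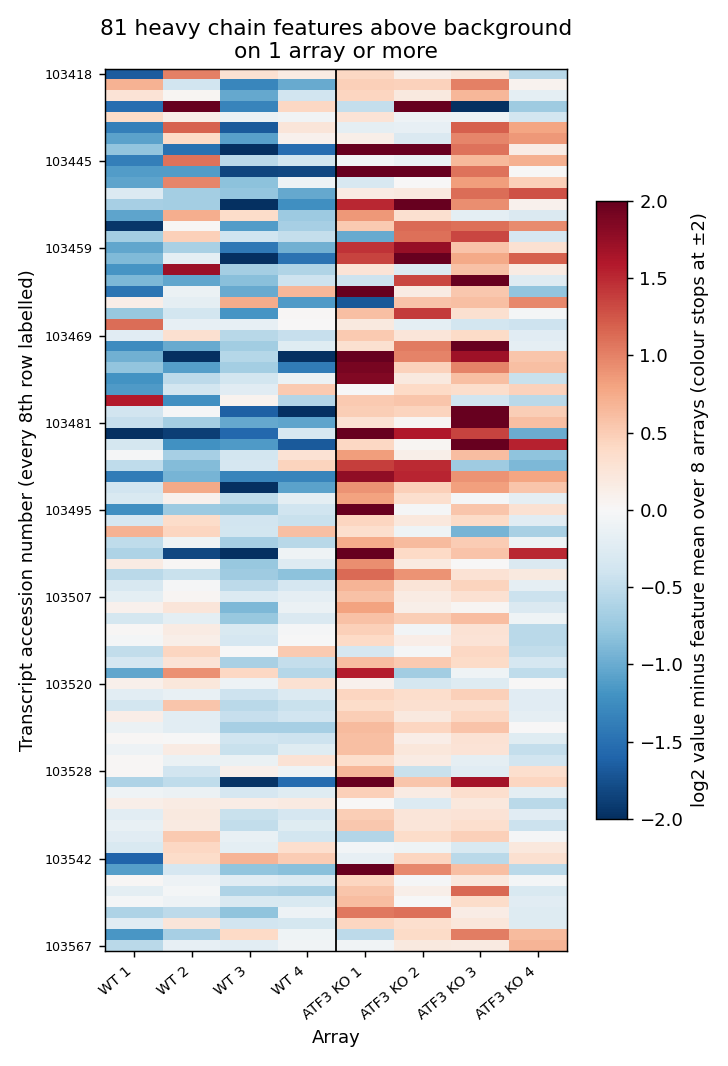
Deviation of each value from its feature's mean over the 8 arrays (colour, log2 units, stopping at ±2) for the 81 members above background on 1 array or more, in accession order from top to bottom, with arrays in columns and a line between WT and ATF3 KO. In the lower part most rows share a pale pattern over the arrays, and the upper part has rows with 1 dark array, which differs between rows.

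Within a group, members moved together over the arrays. Among the 48 members above background on all 8 arrays, the median pairwise correlation of deviations from the group means was 0.51 over the 8 arrays. It was 0.05 between 2127 other features above background on all 8. It was 0.72 among the 28 of them numbered 103498 or higher and 0.30 among the 20 with lower numbers. These are descriptions: the points share arrays and their scaling. The closest of 13076 named genes, Zfp106, followed the mean of the 48 at r = 0.99. As the best of many over 8 arrays, it cannot show whether the pattern extended beyond the block. ATF3 KO 1 was the highest of its group for 30 of the 48 and ATF3 KO 4 the lowest for 37. Before scaling, ATF3 KO 4 was also the dimmest of the 8 arrays, with a 75th percentile of 112.5, and ATF3 KO 1 the brightest of its group. The part of array brightness in this order was not tested. In WT, array WT 2 was the highest for 26 and WT 3 the lowest for 30. Under normexp, quantile normalization and the deposited table ATF3 KO 4 was the lowest for 33, 36 and 36 of the 48.

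Single arrays also stood apart for single members. A value above background and at least 2-fold over the next array of its group occurred for 8 of 249 member values in WT (3.21%, against 0.334% over all features) and 10 of 278 in ATF3 KO (3.60%, against 1.08%). These were not spread evenly over arrays: WT arrays 1 to 4 held 3, 5, 0 and 0, and ATF3 KO arrays 1 to 4 held 6, 1, 3 and 0. The next array was itself above background for 7 of the 8 and 7 of the 10, against 69 of 379 and 306 of 1176 such values over all features; elsewhere the gap is against a floor value. With normexp 3 WT and 4 ATF3 KO values were past 2-fold, 1.20% and 1.44%, against 0.0308% and 0.223% over all features. In the deposited table the values past 2-fold were 3 and 5, 1.20% and 1.80%, against 0.0352% and 0.308%.

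The widest WT gaps were on WT 2. There 103460 read 0.49, against -2.41, -1.91 and -1.82 on the other WT arrays and -0.95, -1.50, -0.63 and -1.06 in ATF3 KO, so that 1 WT array was above all of ATF3 KO. On the same array 103445 read -0.52, against -2.98, -2.14 and -1.98. The member 103478 was above background on WT 1 alone of the WT arrays, at -1.79, at least 1.13 units above the others.

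The member 103423 stood apart in both groups. It read -0.12 on WT 2 and -0.58 on ATF3 KO 2, and -2.75 to -5.21 on the other 6, with 2 WT arrays and 1 ATF3 KO array above background. Its mean difference of -0.31 describes neither group. The gap to the next array was 2.64 in WT and at least 2.28 in ATF3 KO, where the other 3 arrays were not above background.

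In ATF3 KO, 103479 read 1.03 on ATF3 KO 3 and -1.31, -1.36 and -1.31 on the others, against -2.19, -1.82, -3.44 and -4.03 in WT. ATF3 KO 3 was also the high one for 103481, at 0.65 against -1.35, -1.60 and -1.02. For 103495 ATF3 KO 1 was at 1.16 and the others at -1.13, -0.54 and -0.79, with WT at -2.33, -1.82, -1.85 and -1.50. In these 3 members the remaining ATF3 KO arrays still lay above every WT array.

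**Figure D4:**
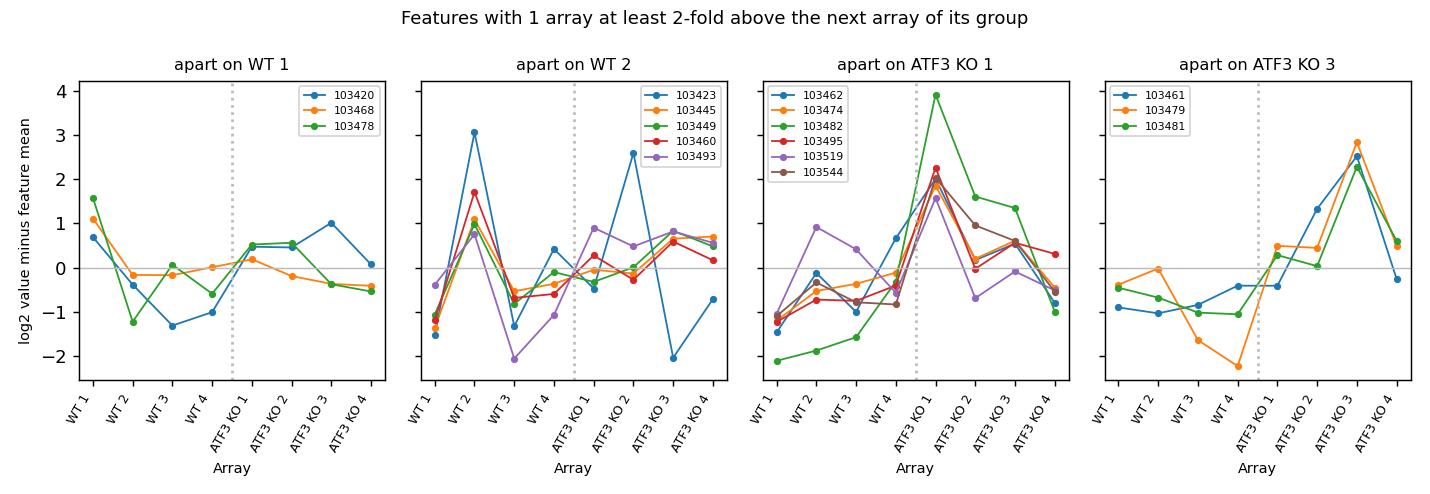
Deviation from the feature's mean over 8 arrays (y axis, log2 units) by array (x axis) for the members with 1 array at least 2-fold above the next of its group, in panels by the array that stood apart; lines join values of 1 member and imply no order of arrays. The panels for WT 2 and ATF3 KO 1 hold the most members, 5 and 6, and 103423 is high on WT 2 and ATF3 KO 2.

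Genes of B-lineage cells were measured on the same arrays, from lists written with earlier results of these data known. Of 74 list genes with a feature, 70 were tested and limma called 0 at an adjusted p under 0.05. At an unadjusted p under 0.05, 22 were higher in ATF3 KO and 3 lower, and 46 of the 70 had the higher mean in ATF3 KO. The share at an unadjusted p under 0.05 in either direction was 22.6% over all tested features. The 0 became 2 without WT 2 and 3 in the deposited table. The part of these cells in the heavy chain values was not tested.

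The early B-cell precursor list had a median difference of 0.40, which was 0.39 above the median of all features and 0.16 above it with normexp, with 8 of 18 genes higher at an unadjusted p under 0.05. Il7r, the receptor chain for the growth factor IL-7, had a difference of 0.91 (SE 0.22, limma adjusted p = 0.11). It was above background on 3 WT arrays and 4 ATF3 KO arrays. Vpreb3, made in precursor B cells, had 0.58, and Cd79b, a signalling chain of the B-cell receptor, had 0.34. These 3 genes were higher on every ATF3 KO array than on any WT array.

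The enzymes that join the segments did not share a direction: over 12 genes of V(D)J recombination and end joining the median was -0.02, with the higher mean in ATF3 KO for 6, and it was 0.09 with quantile normalization. Rag2, of the recombinase that cuts the segments, had a difference of 0.71 (SE 0.22, limma adjusted p = 0.15), with 2 WT arrays and 4 ATF3 KO arrays above background. Lig4, the ligase of end joining, had -0.22. Hmgb1, a DNA-bending cofactor of the recombinase, had 0.21 and Xrcc4, the partner of the ligase, had -0.21.

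Mature B-cell and receptor genes had a median of 0.35, which was 0.33 above the median of all features and 0.05 above it with normexp, with 7 of 17 higher and 1 lower at an unadjusted p under 0.05. Fcmr, a receptor for IgM, had the smallest p, with a difference of 0.49 (SE 0.14, limma adjusted p = 0.13). Fcrla, Cd72 and Spib had 0.40, 0.47 and 0.42. Class switching and somatic mutation genes had a median of -0.01 (0.12 with quantile normalization).

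Plasma cell and antibody secretion genes were divided. The median was 0.11, which was 0.09 above the median of all features and 0.002 above it with normexp, with 6 of 17 higher and 1 lower at an unadjusted p under 0.05. Jchain, which links antibody units into polymers, read 3.83, 4.80, 3.01 and 3.13 in WT and 5.67, 5.42, 5.71 and 5.21 in ATF3 KO, a difference of 1.81 (SE 0.35, limma adjusted p = 0.073). The groups did not overlap, and WT 2 was the highest WT array, as it was for 26 of the 48 heavy chain members. Derl3, of endoplasmic reticulum quality control, had 1.12 (SE 0.19, limma adjusted p = 0.054). It was above background on 2 WT arrays and 4 ATF3 KO arrays. Mzb1, a chaperone of antibody assembly, had 0.74 and Irf4, a transcription factor of plasma cells, had 0.57. Only 9 of the 17 had the higher mean in ATF3 KO. Among the others, Sec11c had -0.35 and was lower on every ATF3 KO array, while Xbp1 had -0.12 and Prdm1 -0.02. Tnfrsf17 and Fkbp11 were above background on no array.

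By array, the heavy chain members and the B-lineage lists did not rank alike in ATF3 KO. Taken as the mean deviation relative to the median of all features, the heavy chain members lay at -0.53, -0.19, -0.58 and -0.35 in WT and 0.53, 0.50, 0.43 and 0.15 in ATF3 KO. The early B-cell list lay at 0.05, 0.28, 0.01 and 0.61 in ATF3 KO, with its highest value on ATF3 KO 4, where the heavy chain members were lowest. The mature B-cell list was also highest there, at 0.37. This was not particular to B-lineage lists. Among the lists for other cells given below, ATF3 KO 4 was the highest array for neutrophils (0.29) and T and NK cells (0.32). It was also the highest for megakaryocytes (1.00) and plasmacytoid dendritic cells (0.50). The monocyte and erythroid lists were highest on WT arrays. The plasma cell list lay between 0.12 and 0.23 on the 4 ATF3 KO arrays and between -0.33 and -0.03 on the WT arrays. The lists for V(D)J recombination and class switching did not separate the groups: V(D)J genes lay at 0.07 on WT 1 and -0.03 on ATF3 KO 3, and class switching genes at 0.14 on WT 1 and -0.04 on ATF3 KO 1. No test was made of these orders.

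**Figure D5:**
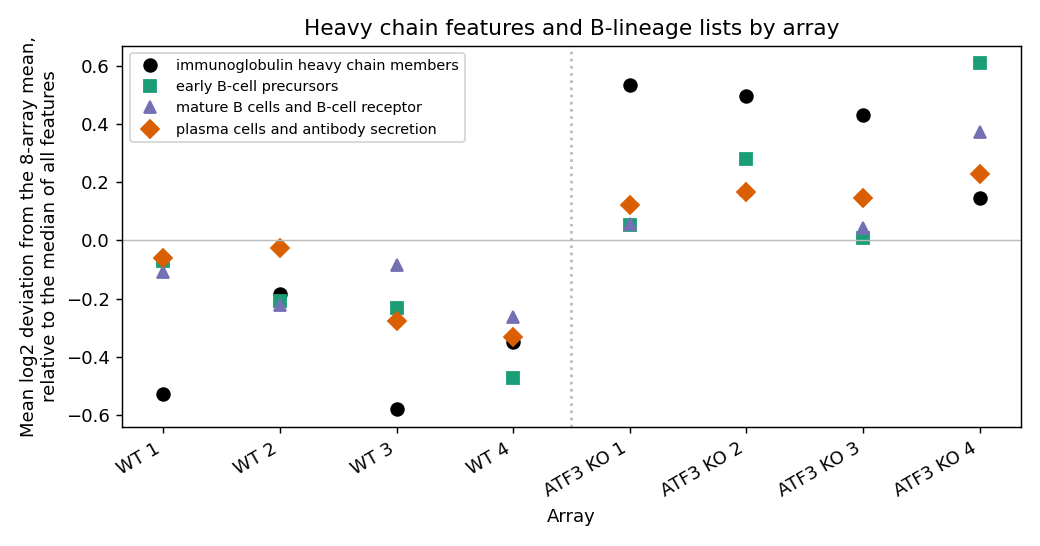
Mean log2 deviation from the 8-array mean, relative to the median of all features (y axis), by array (x axis), for the 98 heavy chain members and 3 of the 5 B-lineage lists. These 4 sets are above 0 on every ATF3 KO array and below 0 on every WT array; on ATF3 KO 4 the early B-cell list is at 0.61 and the heavy chain members at 0.15.

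Lists for other cells that a marrow sort could hold were read in the same way. The median difference was 0.61 over 9 megakaryocyte and platelet genes, 0.28 over 8 plasmacytoid dendritic cell genes, 0.17 over 17 neutrophil genes and 0.05 over 8 erythroid genes. With quantile normalization the neutrophil median was 0.00, and with normexp the erythroid median was -0.07. It was -0.26 over 14 monocyte and macrophage genes and -0.19 over 8 T and NK cell genes. No gene of these lists passed an adjusted p under 0.05 in limma; at an unadjusted p under 0.05, 12 were higher and 8 lower. Summed linear levels of the early B-cell list ran from 68.7 to 84.5 in WT and 85.8 to 109.0 in ATF3 KO, without overlap. The sums of every other B-lineage list overlapped. They were 113 to 124 in WT and 114 to 136 in ATF3 KO for mature B-cell genes, and 153 to 191 and 171 to 211 for plasma cell genes. For V(D)J genes they were 391 to 424 and 373 to 417, and for class switching genes 139 to 147 and 130 to 165. Those of the megakaryocyte list ran from 28.5 to 42.9 and from 32.1 to 87.1, with overlap. Those of the plasmacytoid list, carried almost wholly by the Siglech probe, ran from 335 to 456 and from 463 to 703. The part of these other cells in the heavy chain values was not tested.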

How the data were processed

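Single-colour Agilent arrays of Ly6G+ marrow cells were read with Agilent Feature Extraction 10.9.1.1 per the file headers (the submitters' processing notes name 10.10). The scanner files as deposited give spot intensity, here the processed signal with its background and dye steps already done. A table of the series deposited by the authors holds log2 values with no statement of their centring or direction; its columns have nearly the same distribution. Other deposited columns are flags.

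Control spots and 98 to 159 outlier-flagged spots per array were left out, spots of a feature were averaged, and log2 signal was centred on each array's 75th percentile. limma 3.58.1 in R 4.3.3 was fitted per feature on the 27948 features above background on at least 4 of 8 arrays, with Benjamini-Hochberg adjustment at 0.05, and was tested on simulated data. Normexp (offset 50) used the median spot signal, since a mean signal was not used here. For a list gene with several features, the 1 with the highest mean was used. The number of arrays limits the precision. Members named are the 8 largest differences among those above background on at least 1 array per group (which leaves out 103482 and 103529), the 4 lowest among those above it on all 8 arrays (which leaves out 103497 and 103553), the widest single-array gaps and the ends of the range; list genes are those with the smallest p. The members 103473, 103481 and 103553 and the transcripts with 2 features or 10 spots were named after their values were seen. So were the members given a ratio against the dimmest signal above background. The members and lists were chosen with earlier results of these data known. Some list genes that this rule picks are not reported here.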

Additional observations from a re-analysis of the deposited data

Results flagged for a closer look

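In groups of 4 arrays, 1 array lay far from the other 3 in 2 of 42 groups of named members. Some of these members, 103479 among them, were named for a wide gap of 1 array. The count among named members therefore cannot be set against chance. The member 103468 read -0.54 on the first WT array, with the other WT arrays at -1.82, -1.82 and -1.65. The member 103479 read 1.03 on the third ATF3 KO array, with the others at -1.31, -1.36 and -1.31. Chance flags about 1 in 20 such groups; over all 196 groups of the members 4.59% were so marked, against 3.81% over all features.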

How the results depend on the processing

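The median difference of the members stayed above 0 under every alternative run, from 0.27 (deposited table, with the cause of the change not tested) to 0.62 (percentile over features detected on all arrays), and was 0.38 to 0.56 when 1 array was left out. The members called higher were 3 in the fit reported, 13 with normexp, 12 with median scaling, 9 in the deposited table, 1 with quantile normalization, 1 with no filter or a filter on at least 1 array, 6 with a filter on all 8, 6 with trend and robust variances, 7 with array weights, 7 with 1 feature per gene, 14 at an adjusted p under 0.1, and 1 to 4 with 1 array left out. Features called over the whole array were 58, and in the same order of settings 254 with normexp, 234 with median scaling, 187 in the deposited table, 9 with no filter, 31 and 89 with the filters on at least 1 and on all 8 arrays, 212 with trend, 221 with weights, 95 with 1 feature per gene, 452 at 0.1, and 8 to 156 with 1 array left out. Members without overlap numbered 20 of 1470 such features in all (33 of 2369 with the percentile over detected features, 30 of 3265 with normexp, 20 to 39 with 1 array left out, when all features ranged from 1672 to 3244). B-lineage genes called were 0, but 1 under each of median scaling, normexp, 1 feature per gene and the percentile over detected features, 3 in the deposited table or with trend, 4 at 0.1, and 0 to 2 with 1 array left out. The causes of these changes were not tested. The filter and left-out fits also differ from the fit reported in their number of features or arrays.

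Whether the replicate numbers pair the samples is not known: same-numbered deviations correlated at 0.20, -0.12, -0.26 and 0.18. For numbers 1 and 4 the same-numbered array had the highest correlation in the other group, and for 2 and 3 it did not. In the fit with a replicate block, 11 members and 45 higher and 9 lower features in all were called. Values standing 2-fold above the next array of their group and the rank of ATF3 KO 4 were recomputed under other scalings chosen after seeing the data. Signal near background limits the 33 members above it on some arrays and the 17 above it on none.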

Other observations

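Among 13076 named genes, those whose deviations from the group means most resembled the mean of the 48 members above background on all 8 arrays were Zfp106 (r = 0.99), Thap4 (0.989), Golim4 (0.989) and Csl (0.988). These are the best of many over 8 arrays that share their scaling, and are given as a description. Their ATF3 KO minus WT differences were -0.26, -0.12, -0.27 and -0.20, all below 0, while the members' median was 0.46.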
